A study of Mus musculus with 8 samples.

Results

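WNT signalling was followed through 37 genes that encode ligands, receptors, secreted inhibitors and effectors of the pathway, in skin from the back of female Hos:HR-1 hairless mice. The genes were picked by name, and each was read by the probe set that names it alone and has the highest mean over all 8 arrays. Of the 37 genes 36 had such a probe set, among 18193 genes in all, and 31 lay above a filter that left out the lowest 30% of genes by mean level, which kept 12735 genes for testing. *Tcf7* had no probe set in the annotation used and is not analysed here. The 4 control arrays came from mice fed AIN-93G, a purified rodent diet, for 12 weeks. The 4 collagen-diet arrays came from mice fed 2.0 g of fish-scale collagen hydrolysate, a mixture of collagen peptides, per 100 g of that same diet for the same time. The mice were 9 weeks old at the start and 21 weeks old when the skin was collected. Each diet was given to 8 mice, and the labels call the 4 arrays of a diet biological replicates.

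WNT proteins are secreted lipid-modified ligands that bind a Frizzled receptor together with LRP5 or LRP6. In the canonical branch this keeps beta-catenin from being destroyed, and beta-catenin then acts on target genes with the TCF and LEF transcription factors. R-spondins bind LGR receptors and keep Frizzled receptors on the cell surface, while DKK, SFRP and WIF proteins hold the signal back outside the cell. In skin the pathway is known for its part in forming the hair follicle and in starting its growth phase.

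Deposited log2 values ran from 5.34 to 14.27 and hardly varied between arrays. The median SD over the 8 arrays was 19.9 millionths of a log2 unit among the genes tested. No source used here names the summarization method, so these differences cannot be read as fold changes of RNA. Values of single arrays are therefore given below as deviations from the gene's mean in millionths of a log2 unit. A difference between the diets is the collagen mean minus the control mean, divided by the pooled SD within the diets of that gene (written as SD below), and the standard error of such a difference is 0.71 SD for every gene (n = 4 per diet). All 11 markers of basal and suprabasal keratinocytes and all 6 of fibroblasts lay above the filter, as skin should show. So did all 12 markers of skeletal muscle, whose mean score was -1.37 in control replicate 4 and -1.33 in collagen replicate 1 and between 0.19 and 0.90 in the other 6 arrays. Since whole skin was used, fewer cells of a type and less RNA per cell cannot be told apart.

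No WNT gene passed when collagen-diet skin was tested against control skin. In limma, 0 of the 31 tested had an adjusted p below 0.05, like 0 of all 12735 genes (0%), and the lowest adjusted p of a WNT gene was 0.906. At an unadjusted p below 0.05 stood 1 of the 31 (3.23%), against 5.36% of all genes tested. It was lower on the collagen diet, where 4.15% of all genes were lower at that p and 1.21% higher. In 0 of the 31 did all 4 arrays of one diet lie on one side of the other 4, against 3.31% of all genes (2.53% lower and 0.777% higher on the collagen diet). Higher values on the collagen diet were found for 13 of the 31 and lower values for 18. Their median was -0.24 SD. Of all genes 45.5% were higher, and the median over all genes was -0.08 SD. After quantile normalization 12 of the 31 were higher, against 34.3% of all genes, and after median centring 6, against 13.5% of all genes.

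**Figure D1:**
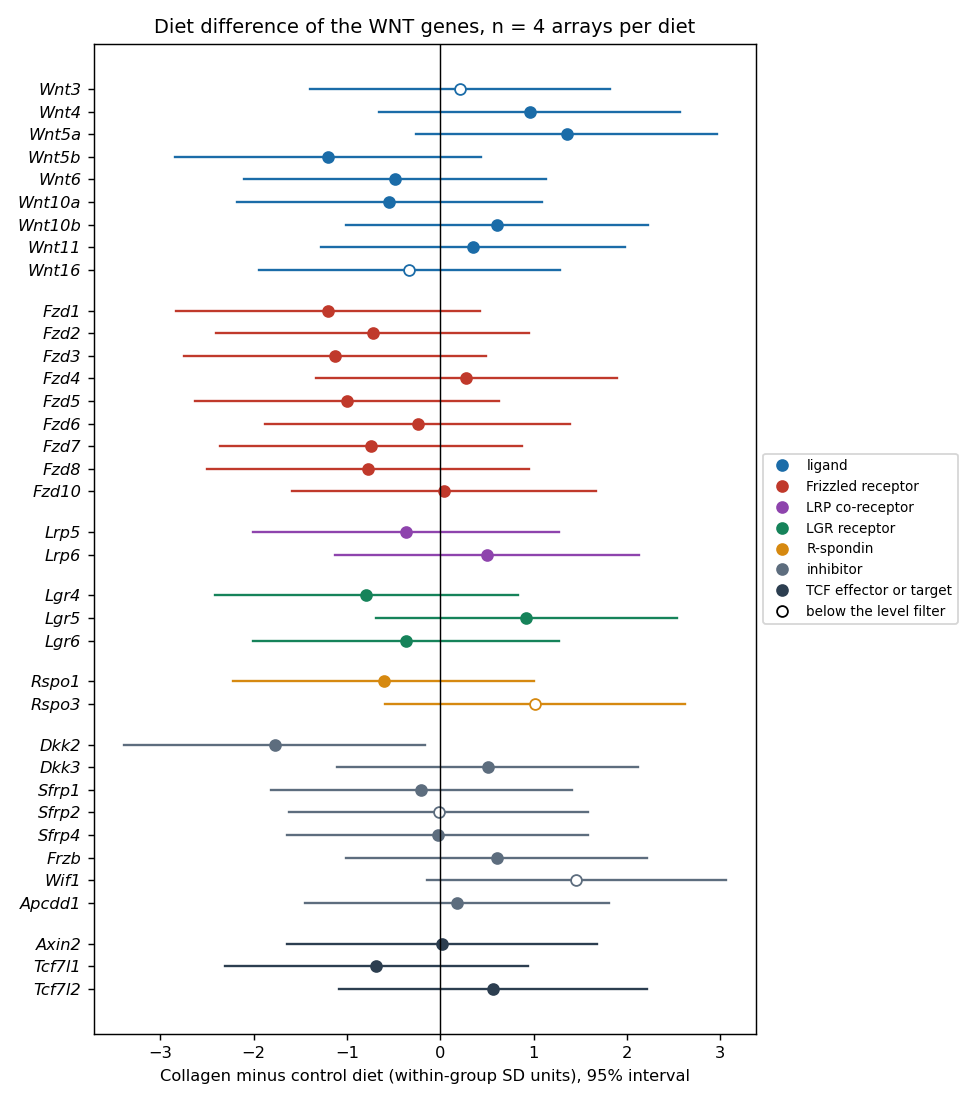
Difference between the diets for each WNT gene, in within-group SD units on the horizontal axis, with limma's 95% interval as the bar, by role. Only the interval of *Dkk2* (-3.39 to -0.16) lies to one side of 0, and open points mark the 5 genes below the level filter.

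The inhibitor *Dkk2*, a secreted protein that binds LRP5 and LRP6, had the smallest p of the WNT genes. Its values were -14.7, 11.1, 144.2 and 68.1 millionths from its mean of 8.30 in control replicates 1 to 4. On the collagen diet they were -109.9, -7.53, -61.4 and -30.0. Collagen replicates 1, 3 and 4 lay below all control arrays, and collagen replicate 2 lay between control replicates 1 and 2. The difference was -104.4 ± 41.6 millionths (SE, n = 4 per diet) or -1.77 SD, with an unadjusted p of 0.0358 and an adjusted p of 0.906 in limma. The unadjusted p lay above 0.05 without control replicate 3 or 4 (0.0609 and 0.0785 in limma) or without collagen replicate 1, 3 or 4 (0.0880, 0.0749 and 0.0534). Quantile normalization gave -0.77 SD and median centring -0.75 SD. Without the arrays low in skeletal muscle markers it was -1.26 SD.

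The start sites of the WNT genes were searched for the sequence that TCF and LEF factors are known to bind, since *Axin2* and other members are targets of the pathway as well as parts of it. The search took CTTTGAA or CTTTGAT or CTTTGTA or CTTTGTT on both strands, which cannot start at the same base of a strand, in the 300 bases from 250 before to 50 after each RefSeq gene start (GRCm38.p6). A match was found in 5 of 28 windows of 23 WNT genes (17.9%) and in 16.9% of all 32851 windows. The windows with a match belong to *Wnt3*, *Wnt5b*, *Wnt11*, *Fzd7* and *Tcf7l2*. Shown 5′ to 3′ are the 250 bases before the start of *Dkk2*, the gene with the smallest p, of *Axin2*, the usual reporter of canonical signalling, and of the downstream start of *Tcf7l2*, which holds a match that begins 14 bases before the start (capitals). A match describes the letters and not a binding site, and no match says only that these letters are not in the window.
Dkk2, chr3:132085042-132085291, plus strand: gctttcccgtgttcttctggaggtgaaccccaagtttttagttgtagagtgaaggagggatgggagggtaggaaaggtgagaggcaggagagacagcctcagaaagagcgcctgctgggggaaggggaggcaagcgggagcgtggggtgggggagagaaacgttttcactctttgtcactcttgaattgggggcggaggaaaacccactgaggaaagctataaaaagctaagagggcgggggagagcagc
Axin2, chr11:108920099-108920348, plus strand: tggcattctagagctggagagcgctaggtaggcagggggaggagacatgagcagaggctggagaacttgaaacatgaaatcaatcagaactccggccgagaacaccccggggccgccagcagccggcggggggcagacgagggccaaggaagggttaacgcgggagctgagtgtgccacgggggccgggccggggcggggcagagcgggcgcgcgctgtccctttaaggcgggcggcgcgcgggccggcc
Tcf7l2, chr19:55895071-55895320, plus strand: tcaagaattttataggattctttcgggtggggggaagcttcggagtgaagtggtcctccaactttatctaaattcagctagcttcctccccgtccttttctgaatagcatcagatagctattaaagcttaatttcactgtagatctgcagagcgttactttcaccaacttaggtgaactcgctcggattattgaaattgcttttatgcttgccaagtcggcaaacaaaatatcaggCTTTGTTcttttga

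Among the ligands no gene passed, and 4 of the 7 tested were higher on the collagen diet with a median of 0.35 SD. After quantile normalization and after median centring alike 2 of the 7 were higher, against 34.3% and 13.5% of all genes. *Wnt5a*, a ligand best known for signalling without beta-catenin, had the smallest p. It stood at 21.3, -36.6, -88.3 and -18.9 millionths from its mean in control replicates 1 to 4, and at 93.2, -13.5, 14.9 and 28.0 in collagen replicates 1 to 4. Collagen replicates 1 and 4 lay above all control arrays and the other two within their range. The difference was 1.35 SD or 61.3 ± 32.0 millionths (SE, n = 4 per diet), with an unadjusted p of 0.0872 and an adjusted p of 0.999 in limma. Quantile normalization gave 0.43 SD and median centring 0.22 SD. Without control replicate 1 the groups did not overlap (1.88 SD, adjusted p = 0.866 in limma).

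Scores of hair follicle markers are set beside *Wnt5a*, and their part in its values was not tested. No tested marker of these lists passed, and the lowest adjusted p was 0.606 in limma, for the inner root sheath keratin *Krt25*. Of the hair shaft and inner root sheath list 9 of 10 genes were higher on the collagen diet, where 45.5% of all genes were higher. *Hoxc13*, the exception, stood at -2.12 SD. In a limma fit without the level filter 5 of the 10 had an unadjusted p below 0.05, *Hoxc13* among them, against 4.63% of all genes. The mean score of the list ran from -1.15 to 0.09 on the control diet and from -0.03 to 1.20 on the collagen diet. The arrays with the lowest and the highest score were control replicate 3 and collagen replicate 1, as for *Wnt5a*. The suprabasal keratinocyte score, from outside the hair follicle lists, had its extremes in the same arrays, at -1.14 and 0.85. In the dermal papilla list 6 of 6 genes were higher, with scores from -0.71 to -0.12 on the control diet and from 0.15 to 0.66 on the collagen diet. Of these, *Corin*, *Sox2* and *Hhip* lay below the level filter and differed by 2.77, 0.42 and 0.55 SD in a fit without it. The groups of *Corin* did not overlap, as in 2.81% of all genes, and its unadjusted p was 0.00506 in limma. Other lists leaned one way too, with 12 of 12 skeletal muscle, 5 of 5 endothelial and 5 of 6 fibroblast markers higher. Of the hair follicle stem cell and outer root sheath list 3 of 7 were higher, and its median was -0.68 SD. This list is not independent of the WNT genes, since it includes *Tcf7l1* and *Lgr5*. Its median is the value of *Tcf7l1*.

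*Wnt4*, a ligand made by epidermal cells, differed by 0.96 SD in its brightest probe set (unadjusted p = 0.202 in limma). Its values were 8.35, 14.2, -48.5 and -90.0 millionths on the control diet and 67.5, 102.7, -54.6 and 0.51 on the collagen diet. Collagen replicates 1 and 2 lay above all other arrays, and the rest overlapped. The sign of *Wnt4* turned with quantile normalization, to -0.69 SD, and median centring gave 0.21 SD. *Wnt10b*, a canonical ligand active at the onset of hair growth, differed by 0.60 SD and *Wnt11* by 0.35 SD. *Wnt5b* stood at -1.21 SD, with 2 of 4 collagen-diet arrays below all control arrays. *Wnt6* and *Wnt10a*, which are neighbouring genes on chromosome 1, stood at -0.49 and -0.55 SD. *Wnt3* and *Wnt16* lay below the level filter and differed by 0.21 and -0.33 SD in a fit without it.

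**Figure D2:**
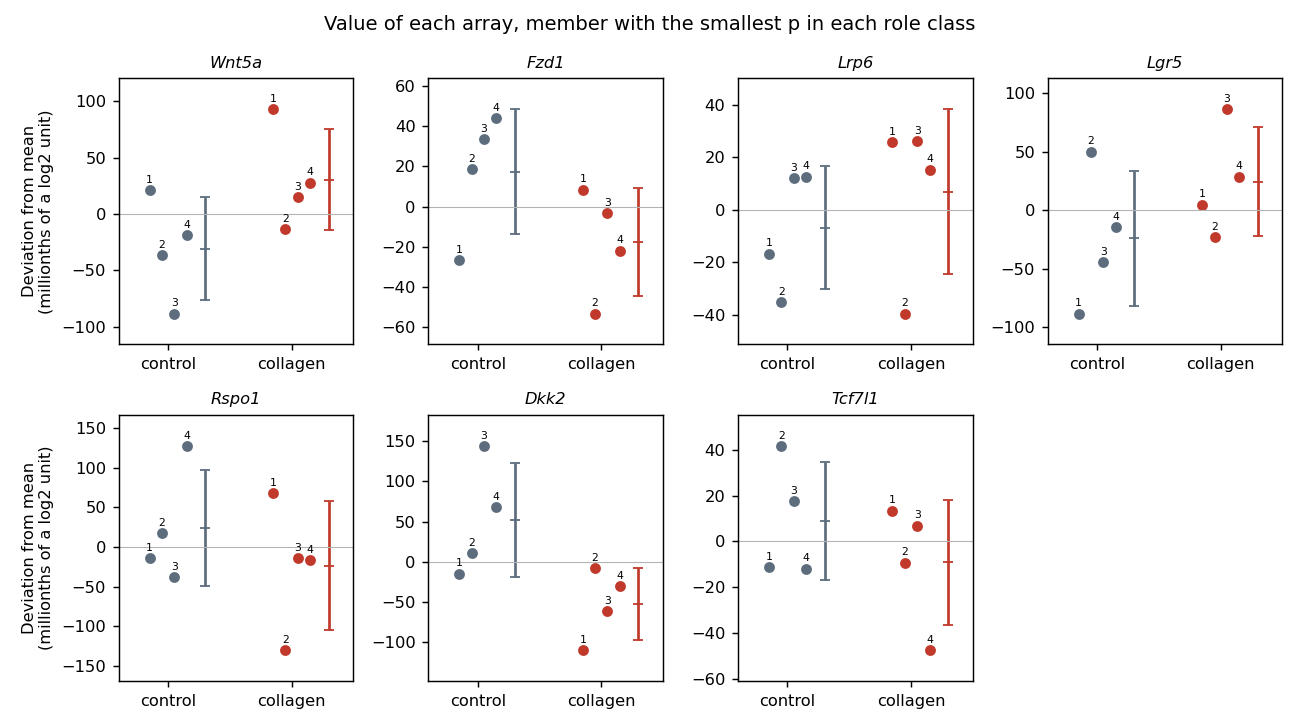
Value of each array for the gene with the smallest p in each role class, as the deviation from the gene's mean in millionths of a log2 unit, with replicate numbers beside the points and mean ± SD (n = 4) at the right of each diet. The diets overlap in all 7 genes, least in *Dkk2*, where collagen replicate 2 at -7.53 stands above control replicate 1 at -14.7.

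The Frizzled receptors, which carry the extracellular domain that holds the ligand, were lower in 7 of 9 on the collagen diet with a median of -0.74 SD, and none passed. After median centring 8 of 9 were lower with a median of -0.19 SD, but so were 11019 of all 12735 genes, with a median of -0.15 SD. The direction was not kept after quantile normalization, where 4 of 9 were lower with a median of 0.02 SD, against 8373 of all 12735 genes. *Fzd1* had the smallest p, at -1.20 SD (unadjusted p = 0.124, adjusted p = 0.999 in limma). Its values were -26.4, 18.5, 33.7 and 43.9 millionths in control replicates 1 to 4 and 8.45, -53.1, -3.10 and -21.9 in collagen replicates 1 to 4. Control replicate 1 stood apart from the other 3 controls, and without it the groups did not overlap (-2.21 SD, adjusted p = 0.820 in limma). Quantile normalization gave -0.64 SD.

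*Fzd3*, a receptor known for its part in the alignment of hair follicles and axons, differed by -1.12 SD. It is described here because of its values without single arrays. It stood at -0.88, -0.65, 12.2 and 60.8 millionths on the control diet and at 31.8, -24.0, -43.9 and -35.4 on the collagen diet. Collagen replicates 2 to 4 lay below all control arrays, and collagen replicate 1 lay above 3 of them. Without collagen replicate 1 the difference was -2.22 SD (unadjusted p = 0.0241, adjusted p = 0.891 in limma). Without that array and control replicate 4, the 2 arrays low in skeletal muscle markers, it was -4.31 SD (unadjusted p = 0.00395, adjusted p = 0.687). After quantile normalization of all 8 arrays it was 0.10 SD.

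The other Frizzled genes stayed closer to 0. *Fzd5* differed by -14.0 ± 9.86 millionths (SE, n = 4 per diet). *Fzd8*, *Fzd7*, *Fzd2* and *Fzd6*, the last a receptor that also orients hair follicles, stood at -0.77, -0.74, -0.72 and -0.24 SD. *Fzd10* and *Fzd4*, the receptor of the eye and vessel ligand norrin, stood at 0.04 and 0.28 SD. In the main fit the smallest unadjusted p among these 7 was 0.187 in limma, for *Fzd5*. With a replicate block *Fzd7* stood at -4.84 SD, in units of the SD left after the block. Its unadjusted p was then 0.00549 and its adjusted p 0.839 in limma.

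Co-receptors and the R-spondin branch did not pass either. *Lrp5* and *Lrp6*, the co-receptors of canonical signalling, differed by -0.37 and 0.50 SD. *Lrp6* stood at -16.7, -35.4, 11.9 and 12.6 millionths on the control diet and at 25.7, -39.6, 26.2 and 15.2 on the collagen diet. Collagen replicates 1, 3 and 4 lay above all control arrays and collagen replicate 2 below them all. Its unadjusted p was 0.489 in limma, and the sign turned to -0.66 SD with quantile normalization, -0.06 SD with median centring and -0.49 SD as the mean of its probe sets.

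*Lgr5*, a receptor for R-spondins that marks stem cells of the lower hair follicle, stood at -88.2, 49.9, -44.1 and -14.2 millionths on the control diet. On the collagen diet it stood at 4.65, -22.8, 86.2 and 28.6. The extremes were control replicate 1 and collagen replicate 3, and the diets overlapped between -22.8 and 49.9. The difference was 0.92 SD (unadjusted p = 0.217 in limma), and quantile normalization gave -0.0023 SD. *Lgr4*, the receptor found most widely in epithelia, and *Lgr6*, a marker of cells above the bulge, stood at -0.79 and -0.37 SD. *Rspo1* stood at -13.8, 17.7, -37.6 and 127.5 millionths on the control diet and at 67.5, -130.2, -14.4 and -16.7 on the collagen diet. Control replicate 4 and collagen replicate 2 were its extremes, and its difference was -0.61 SD (unadjusted p = 0.399 in limma). *Rspo3* lay below the level filter and differed by 1.02 SD in a fit without it.

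Of the 6 inhibitors tested, *Dkk2* included, 3 were higher and 3 lower. The class median of 0.08 SD turned to -0.16 SD after quantile normalization and to -0.09 SD after median centring. Under each 2 of the 6 were higher, against 34.3% and 13.5% of all genes. *Frzb*, a secreted Frizzled-related protein, and *Dkk3*, a relative of the DKK family, differed by 0.60 and 0.51 SD. *Apcdd1*, a membrane protein of the hair follicle that binds ligand and co-receptor, differed by 0.18 SD in its brightest probe set. Its further probe sets ran from -1.75 SD (unadjusted p = 0.0563 in limma) to 0.28 SD. *Sfrp1* and *Sfrp4*, which capture WNT ligands, differed by -0.21 and -0.03 SD. *Wif1*, which binds the ligands themselves, lay below the level filter and had the second largest difference of the class, 1.46 SD (unadjusted p = 0.0687 in a limma fit without the filter). It stood at 7.57, -16.6, -58.2 and -140.3 millionths on the control diet and at -15.7, -7.68, 144.1 and 86.8 on the collagen diet. Collagen replicates 3 and 4 lay above all control arrays, and the other two within their range.

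At the end of the pathway, *Axin2*, a feedback inhibitor that canonical signalling turns on, showed no difference at this precision in its brightest probe set. Its values were -10.7, 13.8, -5.79 and 2.19 millionths on the control diet and 17.5, -8.08, 4.58 and -13.6 on the collagen diet. The highest and the lowest value were both on the collagen diet. The difference was 0.02 SD, with a 95% interval in limma from -1.65 to 1.68 SD. A dimmer *Axin2* probe set, below the level filter, stood at 1.47 SD (unadjusted p = 0.0676 in a limma fit without the filter). *Tcf7l2*, an effector that binds beta-catenin, differed by 0.57 SD. *Tcf7l1*, the repressor-type TCF of follicle stem cells, stood at -11.0, 41.7, 17.5 and -11.9 millionths on the control diet and at 13.4, -9.22, 6.91 and -47.4 on the collagen diet. Apart from collagen replicate 4, which was lowest, its arrays overlapped, and the difference was -0.68 SD (unadjusted p = 0.348 in limma), or 0.03 SD after quantile normalization.

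The spread between arrays was largest for the secreted Frizzled-related proteins and *Fzd4*, each read by its brightest probe set. The SD over all 8 arrays was 2901 millionths for *Sfrp2*, 960.4 for *Fzd4*, 557.0 for *Sfrp4*, 320.0 for *Sfrp1* and 211.3 for *Frzb*, against a 90th percentile of 199.3 over all genes tested. Of the 31 tested WNT genes 4 lay above that percentile and 20 above the median of all genes. The ligands ranged from 8.54 to 64.1 millionths and the TCF genes and *Axin2* from 11.5 to 26.4. Dimmer probe sets of these genes spread less, all below the 90th percentile. Their SD ran from 16.8 to 97.4 millionths for *Sfrp1* and was 198.0 and 8.71 for *Fzd4* and 47.7 for *Frzb*. The sets at 8.71 and 47.7 lay below the level filter. *Sfrp2* and *Sfrp4* had no further probe set. Spreads and levels were read from different probe sets, which need not respond alike to the same amount of RNA. After quantile normalization *Sfrp1* had an SD of 1262 millionths and *Frzb* one of 91.6. No percentile over all genes is given on that scale, so their rank there is open.

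**Figure D3:**
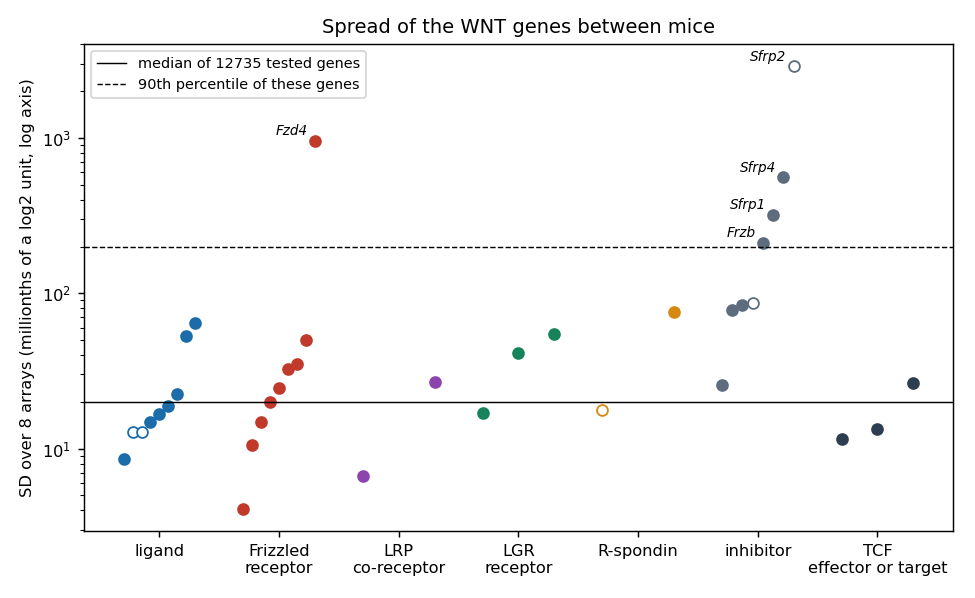
SD over the 8 arrays of the brightest probe set of each WNT gene, in millionths of a log2 unit on a log axis, by role. Lines mark the median and the 90th percentile of all genes tested. Above the dashed line lie *Sfrp2*, *Fzd4*, *Sfrp4*, *Sfrp1* and *Frzb*, and open points are genes below the level filter.

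This spread did not follow the diet. *Sfrp2* stood at -3852, -521.9, 1140.5 and 3344 millionths in control replicates 1 to 4 and at 887, -4754, 2543 and 1213 in collagen replicates 1 to 4. Control replicate 1 and collagen replicate 2 were far below the rest, and the difference between the diets was -0.02 SD in a fit without the filter. *Sfrp1* was low in the same arrays, at -343.8 and -557.0, and next lowest in control replicate 2 at -121.6. The score of the 5 endothelial markers was negative in these same 3 arrays. It was -1.11 in control replicate 1, -0.66 in control replicate 2 and -0.30 in collagen replicate 2, and between 0.23 and 0.61 in the others. It was thus least negative in collagen replicate 2, where both genes were lowest. No other marker list scored was negative in just these arrays. The fibroblast score was -0.77 in collagen replicate 1 and -0.14 in collagen replicate 2, and the adipocyte score was 0.12 in collagen replicate 2. The part of the endothelial score in the values of both genes was not tested.

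*Sfrp4* was highest in collagen replicate 3 (985.9) and control replicate 3 (634.2) and at or below 124.2 in the others. The fibroblast score was highest in the same arrays, at 1.46 and 0.84, and at or below 0.05 in the others. *Frzb* was lowest in control replicate 4 (-278.9) and collagen replicate 1 (-273.7), the arrays low in skeletal muscle markers, and between -64.7 and 298.7 in the others. Without these arrays its difference was 1.35 SD (unadjusted p = 0.139 in limma), and with quantile normalization of all arrays 2.53 SD (unadjusted p = 0.0257, adjusted p = 1 in limma). *Fzd4* ran from -1283 in control replicate 1 to 1360 in control replicate 2, so that a single diet spanned its whole range. The part of fibroblasts and muscle in these values was not tested.

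**Figure D4:**
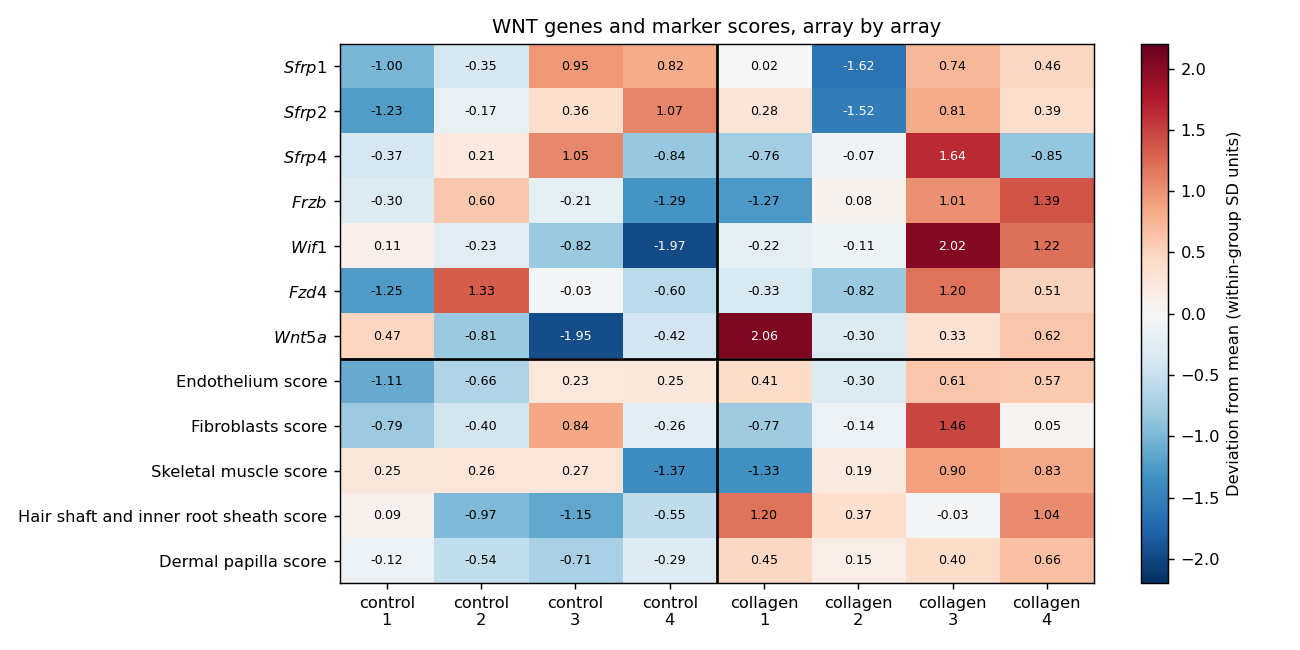
Deviation of each array from the mean, in within-group SD units, for 7 WNT genes (upper rows) and the mean scores of 5 marker lists (lower rows), with control arrays left and collagen-diet arrays right of the line. *Sfrp1* and *Sfrp2* are both lowest in control replicate 1 and collagen replicate 2, and *Frzb* and the skeletal muscle score are both lowest in control replicate 4 and collagen replicate 1.

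Further probe sets of the same genes often went another way. The 36 genes had 43 further probe sets, of which 25 (58.1%) had a difference of the same sign as the one used, against 57.1% over all genes. Of the 28 above the level filter 4 had an unadjusted p below 0.05, and 0 had an adjusted p below 0.05 over the 31526 probe sets tested (0%), of which 5.58% had an unadjusted p below 0.05 and 3.38% had groups that did not overlap. A dimmer *Fzd3* probe set, at -2.77 SD, went the same way as the one used. It stood at 4.11, 1.94, 2.06 and 5.34 millionths on the control diet and at -0.44, -1.08, -6.05 and -5.87 on the collagen diet, with no overlap (adjusted p = 0.730 in limma). Of the other further probe sets of *Fzd3*, 3 had a positive difference. A dimmer *Fzd6* probe set did not overlap either and stood at 2.51 SD (adjusted p = 0.717), while the brightest one stood at -0.24 SD. The other two were a *Wnt4* probe set at 1.77 SD and a *Tcf7l2* probe set at 1.99 SD, with adjusted p of 0.881 and 0.865, both with the sign of the one used. These 4 were chosen after their values were seen.

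**Figure D5:**
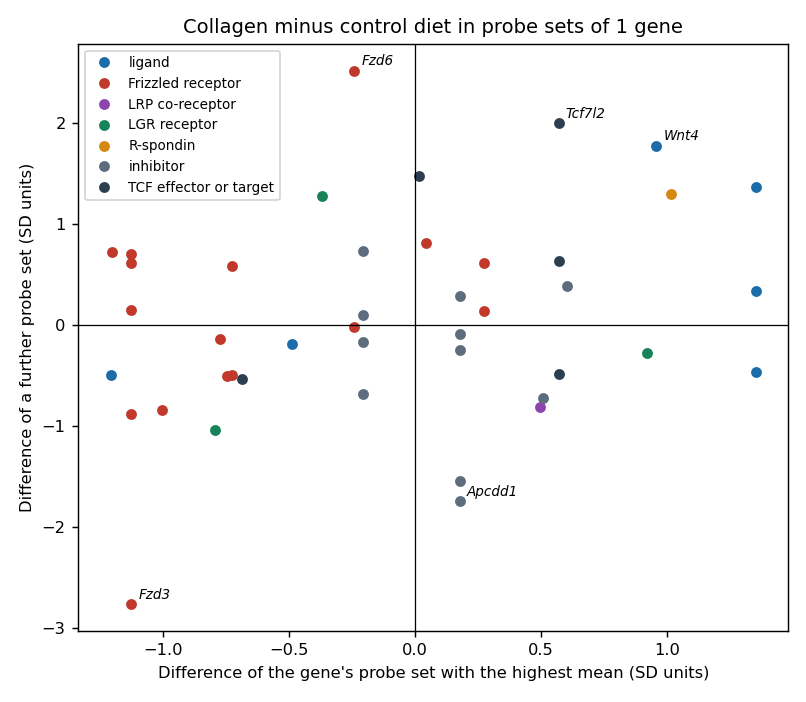
Difference between the diets, in within-group SD units, of each further probe set (vertical axis) against that of the gene's brightest probe set (horizontal axis), by role. Of 43 points 25 lie in the quadrants of equal sign, and *Fzd3* at -2.77 and *Fzd6* at 2.51 are the extremes.

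Mean levels on the deposited scale ran from 6.08 for *Wnt3* to 9.34 for *Wnt4* among the ligands and from 6.99 for *Fzd8* to 9.79 for *Fzd1* among the Frizzled receptors. They ran from 7.80 for *Lgr5* to 9.33 for *Lgr4* among the LGR receptors, from 6.31 for *Wif1* to 10.07 for *Apcdd1* among the inhibitors, and from 7.97 to 8.13 for the TCF genes and *Axin2*. These levels do not rank the genes by RNA, since probe sets of a single gene also differed in level, by a median of 1.27 log2 units over the 25 WNT genes with several and by up to 3.91 in *Apcdd1*. The filter lay at 6.68. Just above it stood *Lrp5* at 6.70, and just below it *Wnt16* and *Sfrp2*, both at 6.57.

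No gene of the wider pathway passed either. Of 71 further genes of WNT release, reception and response, 69 had a probe set and 58 were tested, with 29 higher and 29 lower and a median of 0.04 SD. The test in limma called 0 at an adjusted p below 0.05. At an unadjusted p below 0.05 stood 3 (5.17%), all lower, against 4.15% of all genes for that direction. They were *Bcl9*, a beta-catenin cofactor, at -2.49 SD, *Ror1*, a receptor of WNT5A, at -2.25 SD and *Rhoa*, a small GTPase of the branch without beta-catenin, at -3.21 SD. Their adjusted p lay between 0.754 and 0.809. In each, no collagen-diet array reached the lowest control array, as in 2.53% of all genes. *Bcl9* stood at 8.74, 17.5, 26.0 and 4.78 millionths on the control diet and at 1.15, -20.6, -8.79 and -28.8 on the collagen diet. *Ror1* stood at 16.8, -3.51, 34.3 and 34.1 on the control diet and at -9.72, -46.4, -19.6 and -5.88 on the collagen diet. *Rhoa* ran from 2.94 to 5.75 on the control diet and from -7.32 to 0.041 on the collagen diet. Central parts of the pathway stayed closer to 0 and went both ways. *Ctnnb1*, which encodes beta-catenin, stood at 0.31 SD, *Lef1* at 0.95 SD and *Gsk3b* at 0.66 SD. *Csnk1e* stood at -1.19 SD, *Csnk1a1* at -1.06 SD, *Axin1* at -0.78 SD and *Gsk3a* at -0.58 SD. After quantile normalization 17 of the 58 were higher and after median centring 5, against 34.3% and 13.5% of all genes.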

How the data were processed

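Dorsal skin was measured on 4 control-diet and 4 collagen-diet arrays, and samples were grouped by their titles. The titles call the arrays of a diet biological replicates and do not say whether each holds the skin of 1 mouse. Per the labels' protocols, 200 ng of total RNA from powdered frozen skin was copied into biotinylated RNA with a kit that works from the 3′ end of transcripts. The authors deposited 1 value per probe set and array, on a log2 scale as judged from their range. R 2.7.2 is named in the submitters' processing notes. How the arrays were summarized is named in no source used here. At most 0.0155% of values were identical between any 2 arrays, so each was counted as a sample. The number of arrays limits the precision. The files used give no background signal.

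Of 45101 probe sets 64 controls were left out. Of the rest, 34945 name 1 gene symbol in the platform annotation, which can be old, 932 name several and 9160 none. By Entrez ID, 34741 of those with 1 symbol matched the RefSeq gene table, all under the same symbol. Probe sets with several symbols or none were not used for genes. The fit was limma 3.58.1 in R 4.3.3 (two-sided moderated test, lmFit and eBayes, trend in intensity) over all 12735 genes, p-values adjusted by Benjamini-Hochberg and called below 0.05. It was tested on simulated data. Marker scores are means over a list of the deviation from each gene's mean in within-group SD units. Every array's value is given for members with an unadjusted p below 0.05 or groups that do not overlap and for the tested member with the smallest p in each role. *Wnt4*, *Fzd3*, *Axin2*, *Wif1* and the genes of large spread were added after their values were seen. The members and lists were chosen with earlier results of these data known. The sample titles name no pairing of animals by replicate number, and the main fit used none. Deviations of same-numbered arrays correlated between -0.04 and 0.13, which cannot settle whether these arrays shared a cage or a day. Alternatives were the filter, the normalization, the variance model, weights per array, a replicate block, averaging a gene's probe sets, a threshold of 0.10 and leaving out arrays. Leaving out the 2 arrays low in skeletal muscle markers was chosen after seeing the data.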

Additional observations from a re-analysis of the deposited data

Results flagged for a closer look

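Among 72 groups of 4 arrays (36 WNT genes, 2 diets), 7 (9.72%) held an array far from the other 3 by Dixon's criterion, where chance gives about 1 in 20. Over all genes on these arrays 5.43% of such groups did. On the control diet these were *Dkk3* in replicate 1 at -174.1 millionths of a log2 unit from its mean, *Wnt11* in replicate 1 at -34.2, *Fzd10* in replicate 2 at -30.7 and *Lrp5* in replicate 3 at -9.71. On the collagen diet they were *Lrp6* in replicate 2 at -39.6, *Wnt3* in replicate 3 at 16.3 and *Lrp5* in replicate 3 at 8.68. *Dkk3* lay between 18.5 and 33.9 in the other 3 control arrays.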

How the results depend on the processing

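The number of WNT genes with an adjusted p below 0.05 was 0 under each alternative run, with the threshold at 0.10 included. The number higher on the collagen diet, 13 of 31, was 6 after median centring and 9 to 15 when single arrays were left out. The number at an unadjusted p below 0.05, 1 with all arrays, was 0 after median centring, 3 with the replicate block (*Dkk2*, *Fzd7* and *Wnt5a*) and 0 to 3 without single arrays. With quantile normalization it was also 1, but *Frzb* in place of *Dkk2*. It was 3 without control replicate 1, and 0 without control replicate 3 or 4 or collagen replicate 3. The number whose groups do not overlap, 0 with all arrays, was 0 to 3 without single arrays, 3 of them after dropping control replicate 1, 2 after collagen replicate 2 and 1 after collagen replicate 1, and it was 1 without the 2 arrays low in skeletal muscle markers. With fewer arrays groups overlap less often, and 6.41% of all genes did not overlap without control replicate 1. Quantile normalization turned *Lrp6* to -0.66, *Lgr5* to -0.0023 and *Tcf7l1* to 0.029 SD, median centring turned *Lrp6* to -0.056 SD and the mean of its probe sets to -0.49 SD. Of the 31 tested WNT genes 15 changed sign after quantile normalization and 7 after median centring, and the cause was not tested. The replicate block changed no sign and no call at the adjusted threshold.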
